A study of Homo sapiens with 9 samples.

Results

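The antisense transcripts expressed in ES-2 cells were taken as the rows that the gene annotation of the tables classes as antisense, with a mean of at least 1 FPKM (reads counted on a gene, scaled to its length and to the size of the library) over the 9 libraries and a length of at least 200 bases. Symbols that start with MIR were left out. The rule found 481 transcripts among the 58174 genes of the tables. Of 5525 antisense rows, 2834 were above 0 in any library and 489 reached the level, of which 6 were too short and 2 had a MIR symbol. Since the rule used the mean level, levels are given here as a description, without a test.

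ES-2 is an ovarian cancer cell line. Cells were transfected with control siRNA (siC), a pool of siRNAs against IGF2BP1 (siIGF2BP1) or siRNAs against SRF (siSRF), and total RNA was sequenced 72 h later after ribosomal RNA depletion, in 3 libraries for each siRNA. IGF2BP1 is an RNA-binding protein of fetal tissues and tumours that keeps many target mRNAs from decay, and SRF is a transcription factor that drives immediate-early and cytoskeletal genes. All groups are of this one line, and no label says whether the libraries of a group came from separate cultures, so that p-values measure the spread between these libraries only.

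Antisense transcripts are made from the strand opposite to another gene. Some start next to the promoter of that gene and run away from it, others run through its exons or introns. A few act on chromatin, on the splicing or stability of the sense RNA, or on microRNAs, and some serve as hosts of small nucleolar RNAs, but for most no function is known. The library kit keeps the strand, whereas the strand setting of the read counting is not given in the sources used here. Where an antisense transcript overlaps another gene, reads of the pair therefore cannot be told apart with certainty.

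The libraries held 6421764 to 9416175 reads assigned to genes, and the antisense transcripts took 0.281 to 0.327% of them. IGF2BP1 fell from 12.8 ± 0.689 (SD, n = 3) FPKM in siC to 4.11 ± 0.0846 in siIGF2BP1 (limma adjusted p = 0.000141), and SRF fell from 14.5 ± 1.28 in siC to 1.47 ± 0.145 in siSRF (adjusted p = 6.07e-05). SRF was also lower in siIGF2BP1, at 6.01 ± 0.714 FPKM (adjusted p = 0.00111). The mesenchymal marker VIM stood at 931 FPKM and the epithelial keratins KRT18 and KRT8 at 55.6 and 10.6, whereas PAX8, WT1 and EPCAM were at 0.157, 0.104 and 0.0641 FPKM and MUC16 was at 0. Of the markers of other cell types reported here, PTPRC, CD3E, ALB, SFTPC and INS were at 0 in every library, while PECAM1 and VWF were at 0.245 and 0.0118 FPKM. With 3 libraries against 3 an exact permutation test cannot go below p = 0.1, so the calls below come from limma, fitted across all genes on log2(FPKM + 0.1). All differences are on that scale, which understates changes of low transcripts. A transcript was called at an adjusted p of at most 0.01, the false discovery limit of the study.

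The promoters of 3 antisense transcripts are shown as examples. The levels of their RNAs differed under an siRNA, and their windows hold no untranslated region of a coding gene. Other called transcripts, such as GABPB1-AS1 and NOP14-AS1, also met both conditions, and the 3 were picked without a further rule. TMEM108-AS1 was near 0 in siC and high in siSRF, and it is among the transcripts only through its siSRF level. SNHG7 rose in siSRF, and SBF2-AS1 rose in siIGF2BP1. The sequences come from RefSeq on GRCh38.p14, with 250 bases before the annotated start in lower case and 50 bases from the start in capitals. TMEM108-AS1 starts in chr3:133257072-133257371 on the minus strand, SNHG7 in chr9:136728135-136728434 on the minus strand and SBF2-AS1 in chr11:9758043-9758342 on the plus strand.
TMEM108-AS1: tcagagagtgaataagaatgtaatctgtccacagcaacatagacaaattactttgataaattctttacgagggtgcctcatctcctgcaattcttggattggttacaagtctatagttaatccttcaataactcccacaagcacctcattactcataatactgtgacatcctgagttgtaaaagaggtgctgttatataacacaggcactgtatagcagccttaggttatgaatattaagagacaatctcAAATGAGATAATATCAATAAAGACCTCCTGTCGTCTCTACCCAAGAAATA
SNHG7: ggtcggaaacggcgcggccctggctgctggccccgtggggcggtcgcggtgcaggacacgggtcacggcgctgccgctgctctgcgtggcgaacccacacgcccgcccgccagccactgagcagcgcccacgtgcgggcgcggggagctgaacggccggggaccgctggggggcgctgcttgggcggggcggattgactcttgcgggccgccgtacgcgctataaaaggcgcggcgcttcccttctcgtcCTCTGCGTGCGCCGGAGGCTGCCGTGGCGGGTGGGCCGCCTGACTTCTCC
SBF2-AS1: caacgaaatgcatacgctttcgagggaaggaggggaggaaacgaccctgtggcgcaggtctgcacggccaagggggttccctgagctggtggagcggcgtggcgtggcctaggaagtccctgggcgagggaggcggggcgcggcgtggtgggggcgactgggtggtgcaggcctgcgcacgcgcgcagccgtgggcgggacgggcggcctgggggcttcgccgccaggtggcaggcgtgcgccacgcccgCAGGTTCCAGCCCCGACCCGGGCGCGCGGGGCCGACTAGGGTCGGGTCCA
The window of TMEM108-AS1 was poor in G and C (36.7%) and held 2 CG dinucleotides, whereas the windows of SNHG7 and SBF2-AS1 had 75.3 and 74.3% G and C with 43 and 36 CG dinucleotides. Over all 35116 RefSeq promoters the medians were 58.7% and 14. Among the 481 transcripts, 227 matched a RefSeq promoter by symbol, or by a RefSeq synonym that starts within 1000 bases on the same strand, with medians of 65.7% and 26. The letters TATAAA were found on either strand in the window of SNHG7, in 6.61% of the 227 windows and in 11.5% of all windows. The CArG box, the sequence that SRF binds, was searched on both strands and was found in 1 of the 227 windows, that of ZNF436-AS1, and in 1.29% of all windows. The matched windows of the transcripts called in siSRF, 1 lower and 5 higher, held none.

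The antisense transcripts were low. Their median level was 1.85 FPKM, against 2.19 for 499 lincRNAs and 7.60 for 10380 coding genes chosen with the same limits, and 255 of the 481 lay between 1 and 2 FPKM, 162 between 2 and 5, 45 between 5 and 10 and 19 at 10 or more. The median transcript had 19 reads in a library. Only 41 had a mean of 100 reads or more, 143 had fewer than 10, and 35 were at 0 in at least 1 library. Within a group the median coefficient of variation was 21.4% for the antisense transcripts, near the 19.9% of the lincRNAs and above the 6.69% of the coding genes. It was 7.92% for the transcripts with at least 100 reads and 39.5% for those with fewer than 10. The mean reached 1 FPKM in every group for 355 transcripts and in just 1 group for 32. Just above the limit stood AC100830.4, RP5-1092A3.4 and RP11-422P24.10, whose means in siC, siIGF2BP1 and siSRF were 1.07, 1.25 and 0.701 FPKM for the first, 0.994, 1.29 and 0.737 for the next and 0.580, 1.65 and 0.771 for the last. Just below it were AC004893.11, RP11-172H24.4 and RP11-531A24.5, with 0.948, 0.924 and 0.968 FPKM in siC.

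Most of these transcripts overlap coding genes. GENCODE v44 on GRCh38 holds 465 of the 481. The exons of 308 overlapped exons of a coding gene on the opposite strand, by a median of 17.6% of their bases, and 68 lay under such exons by more than 50%. Another 85 overlapped the gene but not its exons. A further 40 overlapped no coding gene on the other strand but started within 1000 bases of the start of a coding gene that runs the other way, and 32 had another position. Clone names stand for 311 of the transcripts, so their sense gene was read from position where it is named below. The symbols of 136 carry an AS suffix.

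CDR1-AS was the most abundant antisense transcript. It is best known as a circular RNA that binds a microRNA in neurons, and counting by gene does not separate the circle from linear RNA. Its row (ENSG00000281508) held 72.7, 75.4 and 72.1 FPKM in siC, 49.9, 52.9 and 51.1 in siIGF2BP1 and 40.6, 45.5 and 39.8 in siSRF. The groups did not overlap. CDR1-AS fell by 0.52 ± 0.04 (SE) in siIGF2BP1 (limma adjusted p = 0.000964) and fell by 0.81 ± 0.06 in siSRF (adjusted p = 0.000548). The difference between both knockdowns was 0.29 ± 0.06 with an adjusted p of 0.0113. In bulk RNA, fewer cells with a transcript and less of it per cell cannot be told apart. CDR1, the gene its symbol names, held no more than 0.112 FPKM in any library.

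ZFAS1, a host of small nucleolar RNAs at the ZNFX1 locus, came next, with 48.7 ± 4.04 (SD, n = 3) FPKM in siC, 48.4 ± 2.17 in siIGF2BP1 and 50.3 ± 2.52 in siSRF. Its 3 groups overlapped, and the differences from siC were -0.00 ± 0.07 and 0.05 ± 0.07 (SE). SNHG7, also a host of small nucleolar RNAs, held 21.7, 22.7 and 20.8 FPKM in siC, 20.1, 16.4 and 17.96 in siIGF2BP1 and 28.3, 29.2 and 29.9 in siSRF. It rose by 0.42 ± 0.05 in siSRF (limma adjusted p = 0.00225) and differed by -0.26 ± 0.08 in siIGF2BP1 (adjusted p = 0.0876). FGD5-AS1, an RNA studied in tumours, held 19.97 ± 1.996 FPKM in siC, 25.4 ± 0.732 in siIGF2BP1 and 21.0 ± 0.982 in siSRF. It did not pass against siC in the limma-trend fit (adjusted p = 0.0295 and 0.550) and was 0.27 ± 0.05 higher in siIGF2BP1 than in siSRF (adjusted p = 0.00687). FGD5 itself had 0 reads in every library. RP11-660L16.2, on the strand opposite to the cholesterol enzyme gene DHCR7, held 34.1 ± 5.87, 36.7 ± 4.91 and 33.5 ± 1.68 FPKM in the 3 groups and passed in no comparison, while DHCR7 rose by 0.35 ± 0.05 in siIGF2BP1 (adjusted p = 0.00707) and fell by 0.70 ± 0.05 in siSRF (adjusted p = 0.000593). AC093673.5, which starts beside the focal adhesion gene ZYX and runs away from it, held 18.6 ± 1.75, 16.9 ± 1.83 and 27.1 ± 3.75 FPKM and CTD-2263F21.1 13.7 ± 1.39, 17.4 ± 1.47 and 20.7 ± 2.52 FPKM. Neither passed against siC in the limma-trend fit, whereas limma-voom called both higher in siSRF (limma-voom adjusted p = 0.00427 and 0.00321).

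With siIGF2BP1, 8 of the 480 antisense transcripts tested fell, where 3.57% of all genes tested fell, and 13 rose, where 3.55% of all genes rose. With siSRF, 7 of 481 fell and 12 rose, where the shares of all genes were 5.34% and 6.85%. With limma-voom on recovered reads, 9 were lower and 21 higher in siIGF2BP1, where 8.48% and 8.59% of all genes were, and 23 were lower and 29 higher in siSRF, where 10.7% and 12.7% of all genes were. The rule on the mean level bears on these counts. Outside the group where they were higher, 2 of the 8 lower and 2 of the 13 higher in siIGF2BP1, and 1 of the 7 lower and 2 of the 12 higher in siSRF, had a mean under 1 FPKM, so that they entered only through that group and had to differ. Their values are given below as a description, with no p. TMEM108-AS1 was below the level for the test in siIGF2BP1 against siC. Among lincRNAs of the same level, 11 fell and 16 rose in siIGF2BP1, and 26 fell and 15 rose in siSRF. The median difference of the antisense transcripts was 0.10 in siIGF2BP1 and -0.05 in siSRF, and over all genes tested it was 0.02 and 0.01. At an unadjusted p below 0.05, 39 were lower and 75 higher in siIGF2BP1, and 65 were lower and 65 higher in siSRF. Of all genes tested, 14.5% were lower and 14.7% higher in siIGF2BP1 at that p, and 16% lower and 18.7% higher in siSRF. These counts rest on few libraries, since leaving out any one left 1 to 4 lower and 1 to 6 higher in siIGF2BP1, and 4 to 7 lower and 5 to 14 higher in siSRF, where leaving out any siSRF library left 5 or 6 higher. Of the named differences, 16 of 38 lost their call without at least 1 library, and those of C10orf111 in siIGF2BP1 and RP11-440L14.1 in siSRF lost it without any one of the 6. Of the called transcripts, 3 in siIGF2BP1 and 4 in siSRF had fewer than 10 reads in a mean library.

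**Figure D1:**
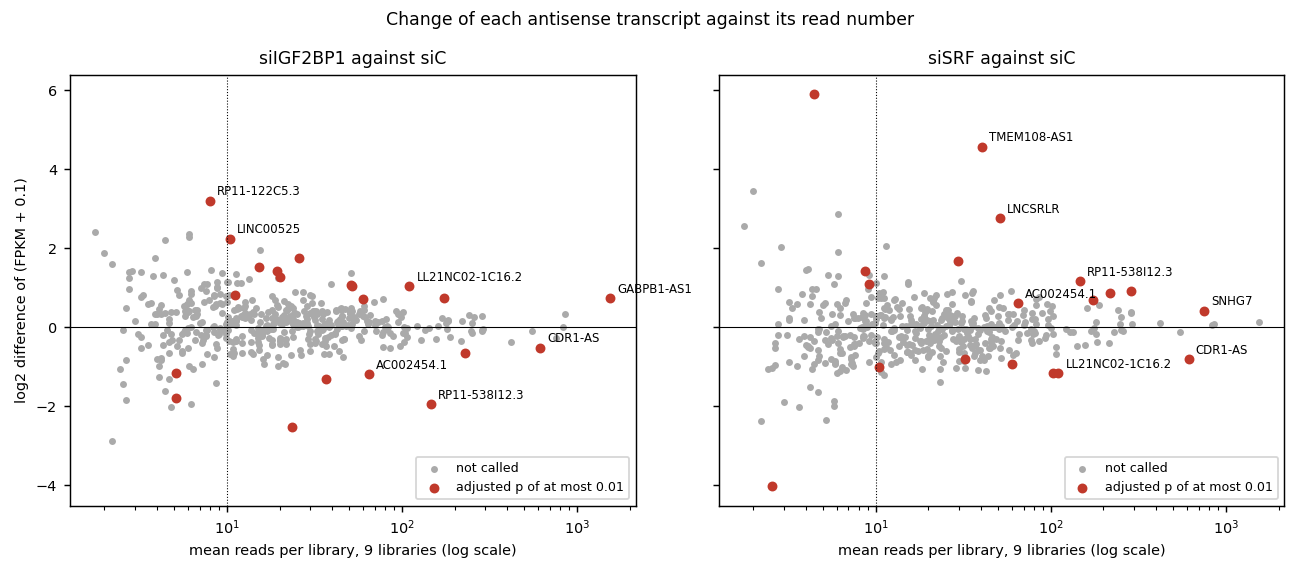
Difference of each antisense transcript from siC (y axis, log2 of FPKM + 0.1) against its mean reads per library (x axis, log scale), for siIGF2BP1 (left) and siSRF (right), with called transcripts in red and a dotted line at 10 reads. The grey points widen to the left, and GABPB1-AS1, CDR1-AS and SNHG7 are called at the right end with differences below 1.

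Several antisense transcripts of low siC level were higher with siIGF2BP1. RP11-122C5.3 (ENSG00000250629; chr5:38783580-38792754) held 0.536, 0.260 and 0.489 FPKM in siC, from 5 reads in all, and 3.69, 4.61 and 5.85 in siIGF2BP1, while siSRF held 0.248, 0.388 and 0.240. The difference was 3.21 ± 0.29 (SE). LINC00525 held 0.510, 0.372 and 0.582 FPKM in siC, 2.52, 3.12 and 2.38 in siIGF2BP1 and 0.236, 0.277 and 0.343 in siSRF, a difference of 2.25 ± 0.22. Both reached the mean of 1 FPKM only through siIGF2BP1. C10orf111, named RPP38-DT in GENCODE v44 and overlapping RPP38, held 0.795, 1.12 and 1.05 FPKM in siC and 4.34, 3.76 and 2.69 in siIGF2BP1. It rose by 1.75 ± 0.23 (limma adjusted p = 0.00454). All libraries of siIGF2BP1 lay above all of siC for C10orf111. The same held for RP11-122C5.3 and LINC00525, for which the rule on the mean level already required a higher siIGF2BP1 level. SBF2-AS1, the one of 17 well-studied antisense RNAs that passed against siC in the limma-trend fit, went from 1.60, 1.11 and 1.29 FPKM to 2.82, 2.96 and 2.79 and rose by 1.06 ± 0.16 (adjusted p = 0.00851).

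Other transcripts were lower with siIGF2BP1. AF121898.3, which overlaps the gene CNBD1 on the other strand outside its exons, held 2.08, 1.87 and 2.28 FPKM in siC, 0.314, 0.330 and 0.203 in siIGF2BP1 and 0.915, 1.21 and 0.746 in siSRF. The differences were -2.52 ± 0.25 (SE) in siIGF2BP1 and -1.06 ± 0.21 in siSRF. It reached the mean of 1 FPKM only through siC. RP5-1171I10.5, in GENCODE v44 the host gene MIR142HG, held 3.91, 5.71 and 4.25 FPKM in siC and 1.93, 1.69 and 1.74 in siIGF2BP1 and fell by 1.31 ± 0.16 (limma adjusted p = 0.00408). RP3-337O18.9, which lies wholly under exons of the lysosomal gene CTSA, held 2.05 ± 0.0946 FPKM (SD, n = 3) in siC, with 24 reads in all, and 0.528 ± 0.142 in siIGF2BP1, a difference of -1.80 ± 0.23. It too reached the mean of 1 FPKM only through siC.

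TMEM108-AS1 (ENSG00000251011) was high in siSRF alone, and it is among the transcripts only through its siSRF level. It held 0.165, 0.0536 and 0.201 FPKM in siC, 0, 0.0499 and 0 in siIGF2BP1, and 5.77, 5.87 and 4.64 in siSRF. The difference from siC was 4.57 ± 0.30 (SE). The siIGF2BP1 libraries held 1 read and the siSRF libraries 354, a ratio of 351 per unit of library size with a 95% counting interval of 62.6 to 13908. The interval covers counting error only, and libraries of a group differed by more than that. Ratio and interval describe a difference that the rule on the mean level already required. TMEM108, the gene it overlaps on the other strand, held 0.541 ± 0.0755 FPKM (SD, n = 3) in siC and 0.645 ± 0.117 in siSRF and did not pass (limma adjusted p = 0.624). LNCSRLR held 2.14, 3.53 and 2.34 FPKM in siC, 7.54, 8.12 and 5.49 in siIGF2BP1 and 20.2, 16.7 and 17.98 in siSRF. It rose by 2.76 ± 0.19 in siSRF (adjusted p = 0.000495) and differed by 1.38 ± 0.23 in siIGF2BP1, just short of the limit (adjusted p = 0.0107). The 3 groups of LNCSRLR did not overlap.

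THAP9-AS1 rose by 0.87 ± 0.09 (SE; limma adjusted p = 0.00127), from 4.95 ± 0.318 (SD, n = 3) to 9.15 ± 0.686 FPKM, and OTUD6B-AS1 by 0.91 ± 0.10 (adjusted p = 0.00213), from 4.89 ± 0.243 to 9.32 ± 1.13 FPKM. In siIGF2BP1 they held 5.50 ± 0.474 and 4.67 ± 0.224 FPKM, and each siSRF library lay above all others. CTD-2568A17.8 had 0 reads in siC and 36 in siSRF. Its siSRF level was 10.5-fold that of a floor of 3 reads over the siC group. RP11-285F7.2 had 11 reads in siC and 0 in siSRF, and its siC level was 4.20-fold that of the same floor over siSRF. Each reached the mean of 1 FPKM only through its higher libraries, CTD-2568A17.8 through siSRF and RP11-285F7.2 through siC and siIGF2BP1. The floor allows for counting error in the group at 0 only and takes the reads of the other group as exact. These folds are therefore no lower limits. RP11-440L14.1, named PCGF3-AS1 in GENCODE v44, fell by 0.80 ± 0.13 (adjusted p = 0.00805), from 3.54 ± 0.433 to 1.99 ± 0.166 FPKM. Its call was lost without the filter on low genes (adjusted p = 0.0109) and with GC and length trends removed (adjusted p = 0.0124).

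The transcripts that passed in both comparisons are given side by side, and both comparisons share the siC libraries. CDR1-AS, described above, was lower in both. RP11-818F20.5 (ENSG00000257732; chr12:104262314-104280722), which overlaps the thioredoxin reductase gene TXNRD1 on the other strand outside its exons, held 21.8, 20.8 and 26.0 FPKM in siC, 35.9, 40.7 and 38.6 in siIGF2BP1 and 38.4, 36.8 and 35.2 in siSRF. It rose by 0.75 ± 0.10 (SE) in siIGF2BP1 and by 0.69 ± 0.09 in siSRF (limma adjusted p = 0.00434 and 0.00329). The remaining transcripts moved apart, and for them the knockdowns were compared directly, without siC.

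RP11-538I12.3 (ENSG00000260922; chr16:77234877-77299950), which overlaps exons of ADAMTS18, held 24.2, 21.9 and 30.3 FPKM in siC, 5.40, 8.83 and 5.61 in siIGF2BP1 and 54.0, 58.7 and 57.0 in siSRF. It fell by 1.95 ± 0.21 (SE) in siIGF2BP1 and rose by 1.16 ± 0.12 in siSRF (limma adjusted p = 0.00262 and 0.00144), and siIGF2BP1 stood 3.11 ± 0.19 below siSRF (adjusted p = 9.33e-05). ADAMTS18 stayed at 0.0630 FPKM or less in every library. AC002454.1 (ENSG00000237819), named CDK6-AS1 in GENCODE v44, held 12.7, 13.9 and 12.6 FPKM in siC, 5.47, 4.93 and 6.73 in siIGF2BP1 and 21.4, 17.4 and 21.1 in siSRF. It fell by 1.19 ± 0.12 and rose by 0.60 ± 0.09 (adjusted p = 0.00190 and 0.00572). In both transcripts the 3 groups were fully apart.

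LL21NC02-1C16.2 (ENSG00000272825; chr21:44936303-44936954) went the other way, with 19.98, 18.3 and 19.3 FPKM in siC, 37.8, 45.4 and 35.7 in siIGF2BP1 and 8.17, 9.93 and 7.49 in siSRF. It rose by 1.04 ± 0.10 (SE) in siIGF2BP1 and fell by 1.17 ± 0.11 in siSRF (limma adjusted p = 0.00146 and 0.00107). CTB-25B13.12 (ENSG00000267317), which overlaps exons of APC2, held 7.65, 8.88 and 8.20 FPKM in siC, 13.5, 13.99 and 13.09 in siIGF2BP1 and 4.15, 5.299 and 3.57 in siSRF. It rose by 0.71 ± 0.07 and fell by 0.93 ± 0.15 (adjusted p = 0.00194 and 0.00701), and the fall missed the limit with GC and length trends removed (adjusted p = 0.0130). No library of one group reached the range of another for either transcript.

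**Figure D2:**
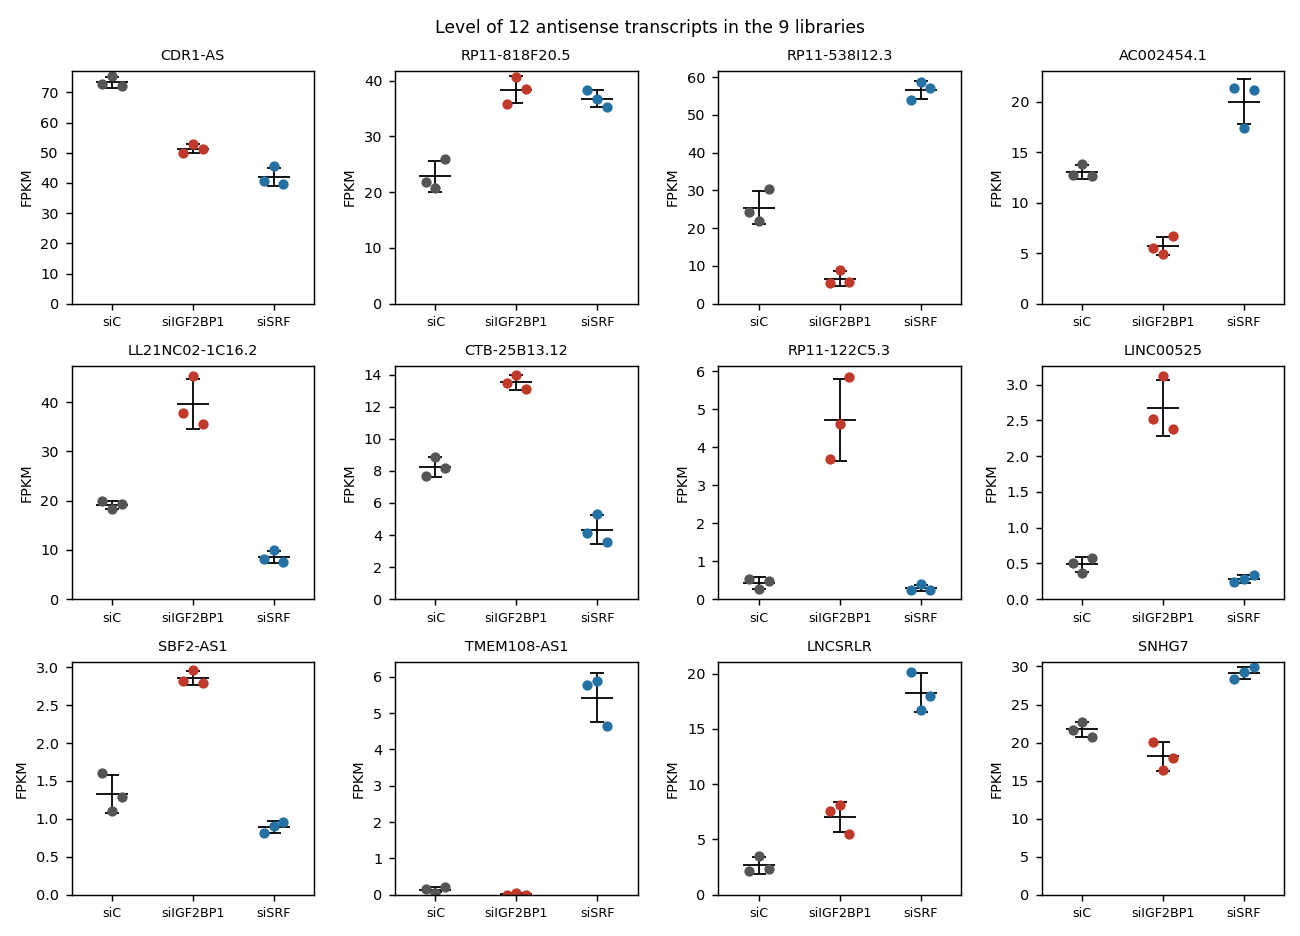
FPKM (y axis) of 12 antisense transcripts in the siC, siIGF2BP1 and siSRF libraries (x axis), with 1 point per library, a bar at the mean and whiskers of 1 SD (n = 3). RP11-538I12.3 and AC002454.1 are lowest in siIGF2BP1 and highest in siSRF, LL21NC02-1C16.2 and CTB-25B13.12 show the reverse order, and TMEM108-AS1 is near 0 outside siSRF.

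Set against each other directly, siIGF2BP1 and siSRF differed in more antisense transcripts. Of 481, 23 were lower in siIGF2BP1 than in siSRF, where 11.2% of all genes were lower, and 28 were higher, where 8.82% of all genes were higher. Leaving out a library left 11 to 17 lower and 10 to 20 higher, and limma-voom gave 36 and 54, where 16.3% and 14.7% of all genes were lower and higher. Of the 23 and 28, 3 and 8 reached the mean of 1 FPKM only through the group where they were higher. Besides those above, CARD8-AS1 held 5.14 ± 1.02 (SD, n = 3) FPKM in siC, 3.48 ± 0.246 in siIGF2BP1 and 8.66 ± 0.679 in siSRF, and was 1.29 ± 0.09 (SE) lower in siIGF2BP1 than in siSRF (difference -1.29; limma adjusted p = 0.000160). AC002467.7, named CBLL1-AS1 in GENCODE v44, held 2.77 ± 1.13, 1.35 ± 0.275 and 4.50 ± 0.320 FPKM and differed by -1.67 ± 0.16 (adjusted p = 0.000533). RP11-613M10.6 held 7.004 ± 2.55, 11.9 ± 1.09 and 21.4 ± 1.54 FPKM and differed by -0.85 ± 0.09 (adjusted p = 0.000698), which did not pass with all 9 libraries in one fit (adjusted p = 0.0291). SBF2-AS1 was 1.58 ± 0.14 higher in siIGF2BP1 than in siSRF (adjusted p = 0.000366).

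The list of 42 antisense and related RNAs known from other studies was held by the tables in full, and 17 of them were members. With siIGF2BP1 0 fell and 1, SBF2-AS1, rose, at the limit where 3.57% and 3.55% of all genes did. For siIGF2BP1 limma-voom called 2 higher, SBF2-AS1 and FGD5-AS1, where it called 8.59% of all genes higher. With siSRF 0 passed at the limit in limma, where 5.34% of all genes fell and 6.85% rose. At an unadjusted p below 0.05, 4 were lower and 1 higher, where 16% and 18.7% of all genes were. For siSRF limma-voom on recovered reads called 2 lower, MAFG-AS1 and TMPO-AS1, where it called 10.7% of all genes lower. Between the knockdowns 3 were higher in siIGF2BP1 than in siSRF, where 11.2% of all genes were lower and 8.82% higher. They were SBF2-AS1, FGD5-AS1 and TMPO-AS1, the last at 3.19, 3.23 and 2.78 FPKM against 1.46, 1.90 and 1.78. There limma-voom called 4 higher, these and LOXL1-AS1, where it called 14.7% of all genes higher. MAFG-AS1 held 3.20, 4.43 and 4.38 FPKM in siC and 1.85, 1.45 and 2.22 in siSRF, a difference of -1.09 ± 0.20 (SE) that just missed (limma adjusted p = 0.0117). Members were also grouped by the class of the sense gene, matched by the start of its symbol. In this way 4 fell to a class of cytoskeletal and adhesion genes (ACTA2-AS1, PXN-AS1, VIM-AS1 and ARHGAP5-AS1), which holds genes that SRF is known to drive. None of the 4 passed against siC, and ARHGAP5-AS1 was 0.83 lower in siIGF2BP1 than in siSRF (difference -0.83 ± 0.12, adjusted p = 0.00327). Of 4 placed with RNA processing and translation, DDX11-AS1 among them by the letters DDX alone, NOP14-AS1 fell by 0.66 ± 0.09 in siIGF2BP1 (adjusted p = 0.00665). None of 3 at HOX clusters, 4 of the proteasome and protein turnover, 2 of the cell cycle or 5 of zinc finger factors passed against siC. Over these and the cytoskeletal class, 18 transcripts, an unadjusted p below 0.05 was reached by 0 lower and 3 higher in siIGF2BP1. The shares of all genes were 14.5% and 14.7%. In siSRF 3 lower and 3 higher reached it, where 16% and 18.7% of all genes did. For siIGF2BP1 limma-voom called 0, where it called 8.48% of all genes lower and 8.59% higher. For siSRF it called 1 lower and 2 higher, where 10.7% and 12.7% of all genes were.

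For 134 antisense transcripts the tables held the sense gene that the symbol names. The antisense mean lay above that of the sense gene in 45 pairs and below it in 89. Over the 129 pairs with the sense gene above 0, the antisense level was a median of 41.9% of the sense level per length, and 32 of the sense genes were under 1 FPKM. The lowest share was that of ENO1-AS1, at 0.221% of the glycolytic gene ENO1, and VIM-AS1 stood at 0.591% of VIM, whereas the sense genes of CDR1-AS and FGD5-AS1 were near or at 0.

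With siIGF2BP1, 69 of 117 pairs (59.0%) had differences of the same sign, and across pairs Pearson's r was 0.27 and Spearman's rho 0.29. With siSRF, 64 of 119 (53.8%) did, with r = 0.13 and rho = 0.20. These values describe pairs that share the same libraries. In the 15 pairs with divergent starts, r was 0.19 in siIGF2BP1 and 0.66 in siSRF. With the sense gene read from position, 39 pairs with divergent starts gave r = -0.03 in siIGF2BP1 and 0.36 in siSRF. In the named pairs with exon overlap, r was 0.25 in siIGF2BP1 (87 pairs) and 0.09 in siSRF (88 pairs). In siIGF2BP1, 5 antisense transcripts and 15 sense genes of the 117 named pairs were called, and 1 pair had both. In siSRF, 4 antisense transcripts and 21 sense genes of the 119 named pairs were called, again with 1 pair of both. Of the 21 sense genes, 15 had an antisense transcript of the same sign, as did 10 of the 15 in siIGF2BP1. Of all coding genes of at least 1 FPKM, 13.5% were called in siIGF2BP1 and 23.4% in siSRF.

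**Figure D3:**
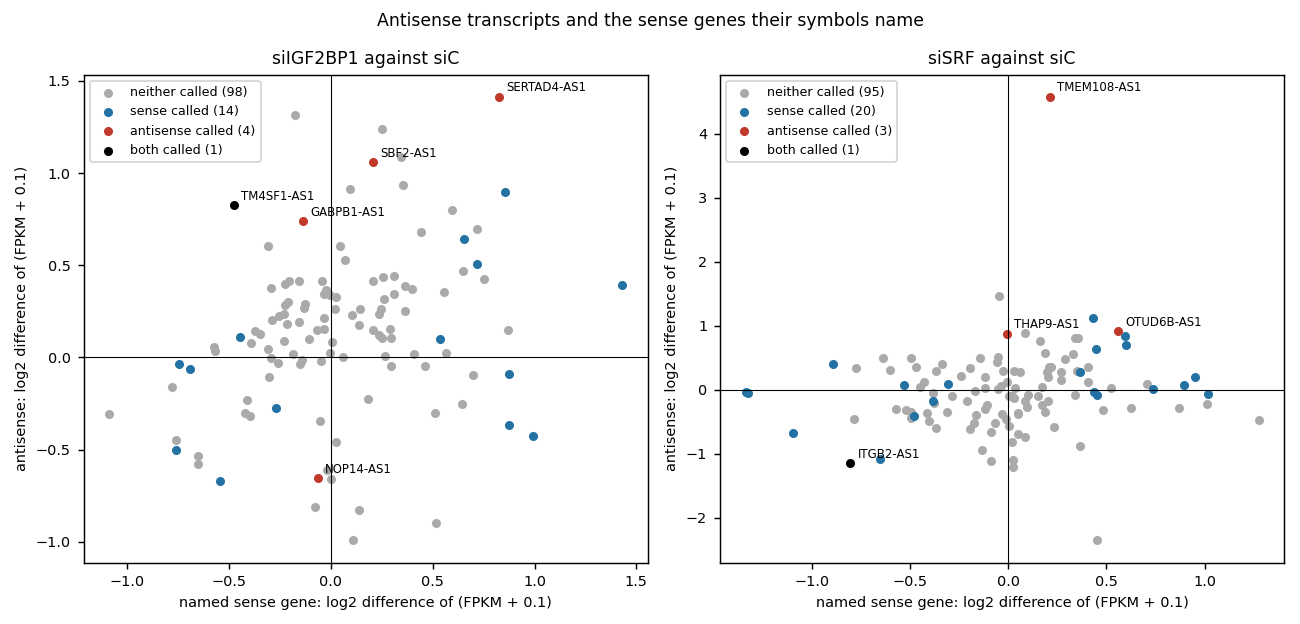
Difference from siC of each antisense transcript (y axis) against that of the sense gene its symbol names (x axis), both log2 of FPKM + 0.1, for 117 pairs in siIGF2BP1 (left) and 119 in siSRF (right), coloured by which partner was called. TM4SF1-AS1 is the pair called on both sides in siIGF2BP1, with opposite signs, and ITGB2-AS1 the one in siSRF, with the same sign.

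ITGB2 encodes a leukocyte integrin subunit, and it fell in siSRF together with its antisense RNA. ITGB2-AS1 held 6.90, 7.91 and 8.39 FPKM in siC, 6.15, 5.45 and 6.30 in siIGF2BP1 and 3.56, 2.97 and 3.78 in siSRF. ITGB2 held 7.55, 7.82 and 7.45 FPKM in siC, 13.9, 13.3 and 15.0 in siIGF2BP1 and 4.66, 3.95 and 4.35 in siSRF. In siSRF both fell, ITGB2-AS1 by 1.15 ± 0.12 (SE; limma adjusted p = 0.00164) and ITGB2 by 0.80 ± 0.08 (adjusted p = 0.00142). In siIGF2BP1 ITGB2 rose by 0.88 ± 0.06 (adjusted p = 0.000692), while ITGB2-AS1 differed by -0.37 ± 0.10 (adjusted p = 0.0581). TM4SF1-AS1, whose start faces that of the tetraspanin-like gene TM4SF1 at 86 bases, was chosen after its values were seen. It held 1.46, 1.42 and 1.49 FPKM in siC and 2.52, 2.80 and 2.66 in siIGF2BP1 and rose by 0.83 ± 0.12 (adjusted p = 0.00716), while TM4SF1 fell by 0.48 on the log2 scale (adjusted p = 0.00153).

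OTUD6B, a deubiquitinase gene, held 13.4, 10.4 and 13.4 FPKM in siC, 7.18, 7.86 and 7.78 in siIGF2BP1 and 19.6, 17.8 and 17.4 in siSRF. It fell by 0.69 ± 0.11 (SE) in siIGF2BP1 (limma adjusted p = 0.00990), where OTUD6B-AS1 differed by -0.06 ± 0.08, and was 0.56 ± 0.11 higher in siSRF without passing (adjusted p = 0.0153), where OTUD6B-AS1 rose. CARD8, an inflammasome gene, and CARD8-AS1 were both lower in siIGF2BP1 than in siSRF, by differences of -0.82 ± 0.07 and -1.29 ± 0.09. SBF2 was 0.38 ± 0.07 higher in siIGF2BP1 than in siSRF (adjusted p = 0.00801), next to 1.58 for SBF2-AS1. THAP9 held 0.696 ± 0.133 (SD, n = 3) FPKM in siC and 0.711 ± 0.239 in siSRF, where THAP9-AS1 rose. GABPB1-AS1, chosen after its values were seen, had the most reads of all members and rose by 0.74 ± 0.10 in siIGF2BP1 (adjusted p = 0.00591), from 9.44, 9.01 and 9.84 FPKM to 14.7, 18.4 and 14.6, where GABPB1 differed by -0.14 (adjusted p = 0.316).

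Some transcripts without an AS suffix moved unlike the gene on the other strand, and others moved with it. CDK6, a kinase of the cell cycle, held 24.3 ± 0.508 (SD, n = 3) FPKM in siC and 24.2 ± 0.206 in siIGF2BP1, where AC002454.1 fell, and rose by 0.63 ± 0.04 (SE) in siSRF (limma adjusted p = 0.000392), where AC002454.1 rose too. TXNRD1 held 197 ± 13.8 FPKM in siC, 156 ± 5.29 in siIGF2BP1 and 305 ± 6.19 in siSRF. It differed by -0.33 ± 0.06 in siIGF2BP1 (adjusted p = 0.0163), where RP11-818F20.5 rose, and rose by 0.63 ± 0.06 in siSRF (adjusted p = 0.00111). RPP38, a subunit gene of the enzymes that process tRNA and rRNA, fell by 1.03 ± 0.10 in siIGF2BP1 (adjusted p = 0.00160), from 7.60 ± 0.250 to 3.68 ± 0.396 FPKM, while C10orf111 rose. PCGF3 held 3.95 ± 0.239 FPKM in siC and 5.3 ± 0.285 in siSRF (adjusted p = 0.0166), where RP11-440L14.1 fell. With the sense gene read from position, 207 of 382 pairs had the same sign in siIGF2BP1 and 220 of 381 in siSRF. In these pairs 48 sense genes were called in siIGF2BP1 and 81 in siSRF, where 13.5% and 23.4% of coding genes of at least 1 FPKM were. Of the 48 and 81, 28 and 57 had an antisense transcript of the same sign. Both partners were called in 2 pairs in siIGF2BP1, 0 with the same sign, and in 4 pairs in siSRF, all 4 with the same sign.

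**Figure D4:**
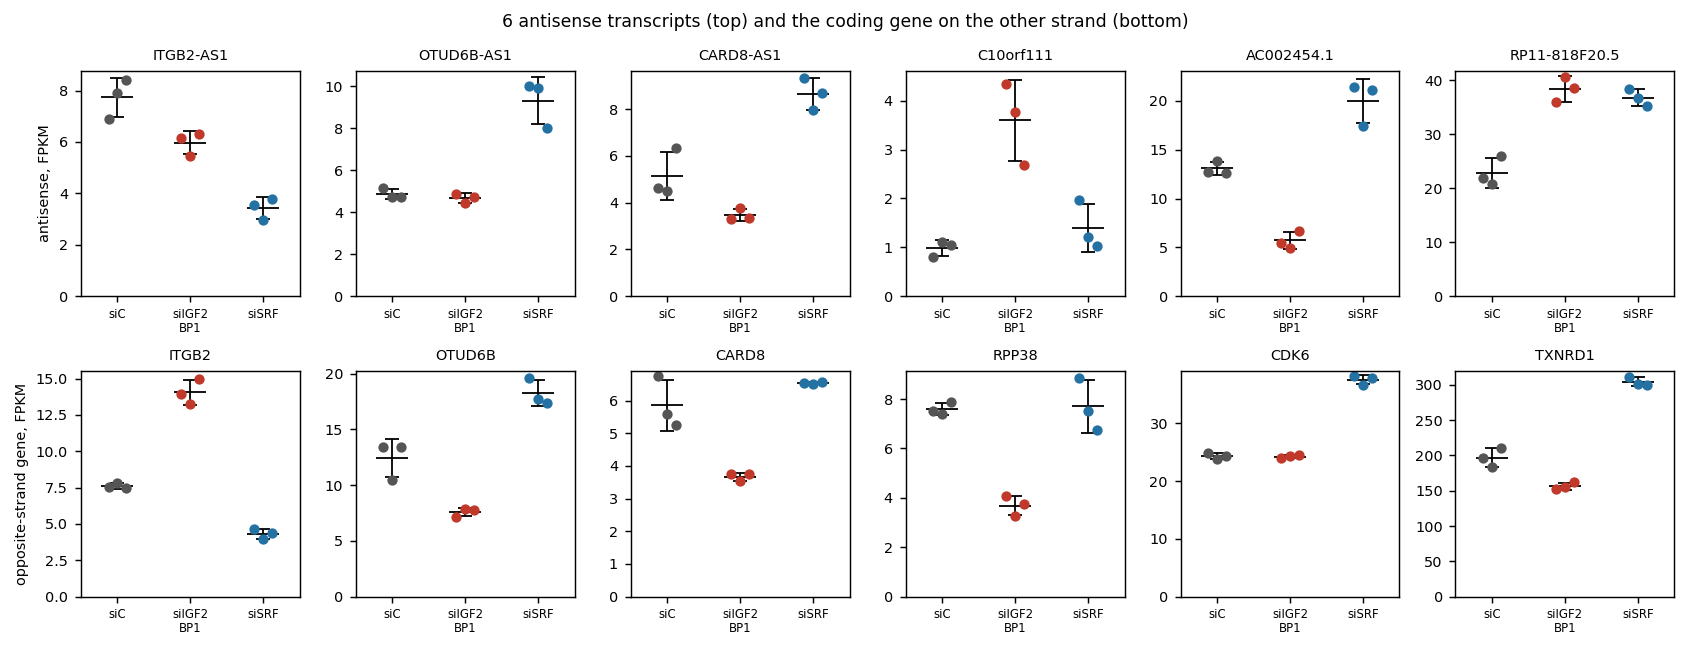
FPKM (y axes) of 6 antisense transcripts (top row) and of the coding gene on the other strand (bottom row) in the siC, siIGF2BP1 and siSRF libraries (x axis), with 1 point per library, a bar at the mean and whiskers of 1 SD (n = 3). In siIGF2BP1, C10orf111 lies above siC while RPP38 lies below it, and AC002454.1 lies below siC while CDK6 does not.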

How the data were processed

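ES-2 total RNA was depleted of ribosomal RNA and sequenced with a directional kit, in 3 libraries each of siC, siIGF2BP1 and siSRF. Per the submitters' processing notes and the methods, reads were clipped with cutadapt 1.14, aligned to GRCh38 with HISAT2 2.1.0, counted on Ensembl genes with featureCounts 1.5.3 and scaled by TMM in edgeR 3.18.1. FPKM values of each library, with the gene length, were deposited. Columns of the authors' own log2 fold changes, p-values and FDR were not used. FPKM times length gave whole reads for 100% of values (tolerance 0.01). Genes whose mean FPKM reached 0.1 in the libraries compared were fitted on log2(FPKM + 0.1) with limma 3.58.1 (trend, R 4.3.3), two-sided, with Benjamini-Hochberg adjustment. limma-voom on recovered reads was an alternative. Positions of antisense and sense genes come from GENCODE v44 on GRCh38. Libraries of a group differed by more than sampling noise (mean chi-square per gene 1.73 to 3.94).

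The named transcripts were the 10 of highest level, up to 6 called per comparison and direction, those called in both knockdowns, their sense genes and 3 on each side of the level limit. The members and lists were chosen with earlier results of these data known. Alternatives were another pseudocount, filter, scaling, fit or limit, and leaving out each library. Added after the data were seen were GC and length trends removed, a minimum mean of 10 reads and sense genes read from position. Dots that the tables put in symbols for hyphens were turned back. A marker of the cell type list is not reported here.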

Additional observations from a re-analysis of the deposited data

Results flagged for a closer look

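Of the transcripts chosen by the rule for named transcripts, 19 passed the direct test of siIGF2BP1 against siSRF (limma adjusted p of at most 0.01). The rule itself took up to 6 transcripts per direction because they were called in this comparison, so those had to pass. CARD8-AS1, AC002467.7, RP11-613M10.6 and SBF2-AS1 came in through it alone. The number 19 is therefore a description. Among all 481 transcripts 23 were lower and 28 higher, where 11.2% and 8.82% of all genes were. The log2 differences of the 19, siIGF2BP1 minus siSRF, are given here. Those lower in siIGF2BP1 were TMEM108-AS1 at -5.59, RP11-538I12.3 at -3.11, AC002454.1 at -1.80, AC002467.7 at -1.67, LNCSRLR at -1.38, CARD8-AS1 at -1.29, OTUD6B-AS1 at -0.97, RP11-613M10.6 at -0.85, THAP9-AS1 at -0.73, SNHG7 at -0.68 and AC093673.5 at -0.67. Those higher in siIGF2BP1 were RP11-285F7.2 at 3.95, RP11-122C5.3 at 3.62, LINC00525 at 2.85, LL21NC02-1C16.2 at 2.21, CTB-25B13.12 at 1.63, SBF2-AS1 at 1.58, ITGB2-AS1 at 0.78 and FGD5-AS1 at 0.27. RP11-285F7.2 had 0 reads in siSRF and 12 in siIGF2BP1, 4.03-fold the level of a floor of 3 reads over the siSRF group. Neither this fold, which takes the 12 reads as exact, nor its fitted difference is a bound. RP11-285F7.2, TMEM108-AS1, RP11-122C5.3 and LINC00525 reached the mean of 1 FPKM only through the libraries where they were high, so that their differences are a description.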

How the results depend on the processing

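Counts are given as lower and higher. They show how the calls move with the setting. The shares of all genes are given above for the main fit and limma-voom only. Under the other settings the counts therefore cannot be set against all genes. In siIGF2BP1 against siC, the main counts of 8 and 13 became 9 and 21 with limma-voom on recovered reads, 21 higher with a minimum mean of 10 reads (chosen after seeing the data), 18 and 31 at an adjusted p of at most 0.05, and 1 to 4 and 1 to 6 with a library left out. In siSRF against siC, 7 and 12 became 23 and 29 with limma-voom and also with a minimum mean of 10 reads, 11 and 21 with a minimum mean of 1 FPKM, 12 and 19 with all 9 libraries in one fit, 29 and 37 at 0.05, and 4 to 7 and 5 to 14 with a library left out. Between the knockdowns, 23 and 28 became 36 and 54 with limma-voom, 37 and 55 with a minimum mean of 10 reads, 46 and 72 at 0.05, and 11 to 17 and 10 to 20 with a library left out. The cause was not tested beyond the smaller number of libraries or genes. Fitted with a replicate block, the counts were 0 and 0, 1 and 3, and 11 and 13. Same-numbered libraries deviated with correlations of -0.044 to 0.019, so these values show no pairing by number. They cannot exclude one, and no label says whether same-numbered libraries belong together. No named fold change reversed. With a library left out, the calls lost were 5 of 6 times for RP11-818F20.5 in both comparisons, for RP11-538I12.3, RP5-1171I10.5 and RP3-337O18.9 in siIGF2BP1 and for AC002454.1 and CTB-25B13.12 in siSRF, and 1 to 4 times for AF121898.3, RP11-122C5.3, LINC00525, AC002454.1 and CTB-25B13.12 in siIGF2BP1 and RP11-538I12.3 and OTUD6B-AS1 in siSRF, while 22 named differences, with all those between the knockdowns, kept the call without each library. Some of these 22 differences belong to transcripts that reached the mean of 1 FPKM only through the libraries where they were high. For those transcripts the rule on the mean level already required a difference. The named differences were also taken up because they were called with no library left out. The number 22 is therefore a description and no independent support for the calls. Transcripts with few reads are limited by depth, and SD values come from 3 libraries.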

Other observations

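The position of LL21NC02-1C16.2 was looked at after its values were seen. On GRCh38 it starts 4314 bases beyond the annotated start of ITGB2 (chr21:44885953-44931989, minus strand) and 6623 bases beyond the end of ITGB2-AS1. In siC, siIGF2BP1 and siSRF, LL21NC02-1C16.2 held means of 19.2, 39.6 and 8.53 FPKM and ITGB2 7.61, 14.1 and 4.32 FPKM. ITGB2-AS1, which overlaps ITGB2, held 7.73, 5.97 and 3.44 FPKM. Between siIGF2BP1 and siSRF the log2 differences were 2.21 ± 0.13 (SE) for LL21NC02-1C16.2, 1.68 ± 0.08 for ITGB2 and 0.78 ± 0.12 for ITGB2-AS1.

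RP5-940J5.9, on the strand opposite to GAPDH and 100% under its exons, had 9.11 reads in a mean library and held 1.44, 2.09 and 2.29 FPKM in siC and 3.99, 3.90 and 4.82 in siSRF (log2 difference 1.11 ± 0.20, SE; limma adjusted p = 0.00958). RP11-366L20.3, which overlaps HMGA2 on the other strand outside its exons, had 8.67 reads and held 1.33, 1.62 and 2.13 FPKM in siC, 1.44, 1.81 and 0 in siIGF2BP1 and 4.01, 5.80 and 4.18 in siSRF (1.41 ± 0.22, adjusted p = 0.00580). RP5-940J5.9 and RP11-366L20.3 were chosen after their values were seen. Reads of RP5-940J5.9 and GAPDH cannot be told apart with certainty, since the strand setting of the counting is not given. The level of GAPDH was not set beside that of RP5-940J5.9.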
